A study of Sus scrofa with 9 samples.

Results

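HBB, ALAS2 and TFRC are 3 genes that a red blood cell precursor needs to fill itself with haemoglobin, and they are described here in embryonic pig muscle. They were chosen by gene symbol, and each symbol matched 1 entry among the 19643 gene entries of the expression table (HBB is ENSSSCG00000014725, ALAS2 is ENSSSCG00000012347 and TFRC is ENSSSCG00000011848). Longissimus dorsi, a muscle that runs along the spine, was taken from embryos of the Tibetan pig and the Wujin pig, both indigenous to China, and of the Large White pig, an introduced breed and its RNA was sequenced in 3 libraries of each breed. No treatment separates the groups, and the embryonic stage is given with no gestational day, so a difference in age and a difference in breed cannot be told apart. Whether the 3 libraries of 1 breed stand for different embryos is not stated, so p-values reflect the spread among these libraries alone, and that spread may be technical. One Wujin library carries the number 1, and the remaining pair carry the same header and are named Wujin a and b here.

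HBB encodes the beta chain of haemoglobin. ALAS2 is the erythroid form of 5-aminolevulinate synthase, which makes the first and rate-limiting step of haem synthesis in red cell precursors, while ALAS1 does so in other tissues. TFRC, transferrin receptor 1, takes up iron bound to transferrin and is present on erythroid precursors, on dividing cells and on muscle. When a cell is short of iron, iron regulatory proteins bind stem-loops in these messages: they stabilise the TFRC message and hold back translation of ALAS2 and ferritin. In whole tissue, haemoglobin message can come from blood in the vessels, and fewer cells of a type cannot be told apart from less RNA per cell.

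The values are FPKM, fragments scaled by transcript length and by sequencing depth. Total FPKM per library ran from 505042 to 677783, and steps between low values placed relative depth between 1 and 1.22 times that of Large White 1. Fragment numbers are unknown, and values therefore carry no counting interval. Muscle genes were abundant in every library (DES, the muscle intermediate filament protein, stood at 1046 FPKM or more), but ACTA1, skeletal alpha-actin, was listed at 0 in Tibetan 2 against 37424 and 41829 FPKM in Tibetan 1 and 3. A 0 in this table can thus be a failed estimate. The Tibetan libraries differed from the others across most genes: the median fitted difference over all 13106 entries tested was -0.77 for Tibetan minus Large White, -0.20 for Wujin minus Large White and -0.55 for Tibetan minus Wujin, on the scale of log2(FPKM + 1). A relative change below is the fitted difference minus this median.

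HBB and ALAS2 were lowest in the Tibetan libraries, and TFRC was highest there. Mean HBB was 8.85 times higher in Large White than in Tibetan libraries, and mean ALAS2 was 9.69 times higher. Mean TFRC was 3.48 times higher in Tibetan than in Large White libraries and 6.36 times higher than in Wujin libraries. All 3 genes passed the expression filter of a mean of at least 1 FPKM, and limma's test called all 3 in Tibetan minus Large White, where 76.2% of the tested entries were called. By direction, 63.2% of entries were called lower, as HBB and ALAS2 were, and 13.0% were called higher, as TFRC was. After the libraries were rescaled by median ratios these shares became 33.0% lower and 32.4% higher, and all 3 genes kept their calls. In Wujin minus Large White, where 6.52% of entries were called, none of the 3 was called; it uses the same 3 Large White libraries as the Tibetan comparison (1.67% of entries were called higher and 4.85% lower, or 1.86% and 1.27% after median-ratio scaling). An F test over the 3 breeds together, which called 77.6% of entries, also called all 3, with adjusted p-values of 0.000542 for HBB, 0.000214 for ALAS2 and 2.23e-05 for TFRC.

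**Figure D1:**
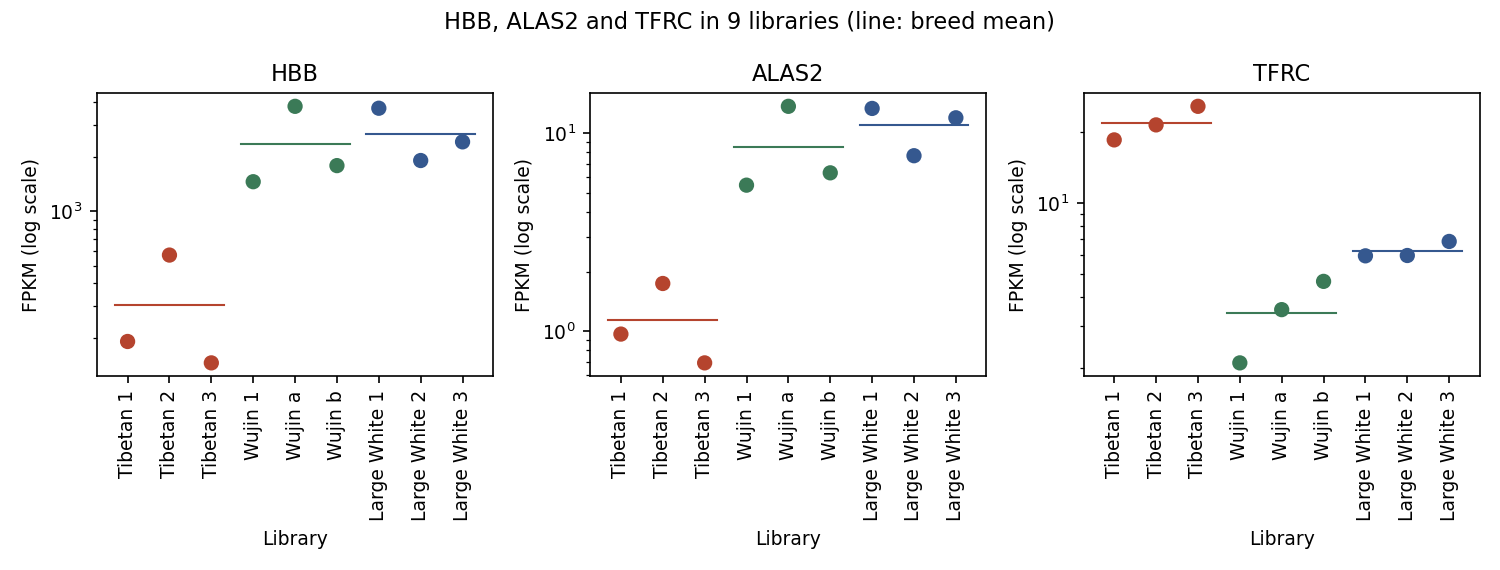
FPKM (log axis) of HBB, ALAS2 and TFRC in each of the 9 libraries, with a line at each breed's mean (n = 3). The 3 Tibetan libraries lie below all 6 others for HBB and ALAS2 and above all 6 others for TFRC. Of all tested entries, 80.6% show no overlap of Tibetan with Large White values and 67.7% none with Wujin values.

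HBB stood at 191, 573 and 145 FPKM in Tibetan 1, 2 and 3. It stood at 1459, 3809 and 1790.5 FPKM in Wujin 1, Wujin a and Wujin b, and at 3717, 1910.4 and 2423 FPKM in Large White 1, 2 and 3. The Tibetan values did not overlap with those of either other breed, while the Wujin and Large White values were interleaved. A lack of overlap was shared by 80.6% of tested entries for Tibetan and Large White, and by 67.7% for Tibetan and Wujin. Over the 9 libraries HBB had the 38th highest mean of all entries, and it made up 0.0214% to 0.704% of a library's total FPKM. The breed means were 303 ± 235 FPKM in Tibetan, 2353 ± 1272 in Wujin and 2684 ± 931 in Large White libraries (SD, n = 3).

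Tibetan minus Large White was -3.35 ± 0.53 for HBB (fitted log2 difference ± SE), a relative change of -2.58 (limma, Benjamini-Hochberg adjusted p = 0.000338). Tibetan minus Wujin was -3.09 ± 0.53 (relative change -2.54, adjusted p = 0.000690). In that comparison 67.7% of the tested entries were called, 53.9% lower and 13.8% higher, and after median-ratio scaling 30.4% were lower and 30.9% higher. Wujin minus Large White was -0.26 ± 0.53 with a 95% interval from -1.46 to 0.94 (adjusted p = 0.754), an interval that covers both directions. Its sign turned without Wujin 1 (0.017). HBB varied widely within breeds: the highest library exceeded the lowest 3.95 times in Tibetan, 2.61 times in Wujin and 1.95 times in Large White. Haemoglobin genes form clusters of similar copies, and HBE1, an embryonic beta-type globin, is among the nearest named genes to HBB in the RefSeq order (assembly Sscrofa11.1), so how reads were split among copies is uncertain.

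ALAS2 put the 9 libraries in the same order as HBB, from Tibetan 3 up to Wujin a, at a far lower level. It stood at 0.967, 1.74 and 0.692 FPKM in Tibetan 1, 2 and 3, at 5.46, 13.6 and 6.30 in Wujin 1, Wujin a and Wujin b, and at 13.3, 7.69 and 11.9 in Large White 1, 2 and 3. The breed means were 1.13 ± 0.544, 8.47 ± 4.50 and 11.0 ± 2.94 FPKM (SD, n = 3), and again only the Tibetan values stood clear of the other breeds. Tibetan values stood clear of Large White in 80.6% of tested entries and of Wujin in 67.7%. Tibetan minus Large White was -2.49 ± 0.33 for ALAS2 (relative change -1.72, limma adjusted p = 0.000106) and Tibetan minus Wujin was -2.08 ± 0.33 (relative change -1.53, adjusted p = 0.000415). Wujin minus Large White was -0.41 ± 0.33 (95% interval -1.15 to 0.34, adjusted p = 0.403). At these low Tibetan levels the added constant matters: with 5 in place of 1, Tibetan minus Large White shrank to -1.37 and Tibetan minus Wujin to -1.09, both still called, and quantile normalization gave -1.63 for the first.

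The ratio of HBB to ALAS2 hardly moved while both genes changed. It was 197, 329 and 210 in Tibetan 1, 2 and 3, then 267, 279 and 284 in Wujin 1, Wujin a and Wujin b, and 279, 249 and 203 in Large White 1, 2 and 3. Over the 9 libraries, the highest ratio was 1.67 times the lowest, whereas HBB itself spanned 26.2-fold and ALAS2 19.7-fold. The breed means of the ratio were 246 ± 72.8, 277 ± 8.73 and 244 ± 38.4 (SD, n = 3), and their ranges overlap. A ratio within a library does not depend on how libraries are scaled, but it cannot say which cells the message came from. Within the Tibetan breed, Tibetan 2 was highest for both genes, within Wujin it was Wujin a, and within Large White it was Large White 1.

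**Figure D2:**
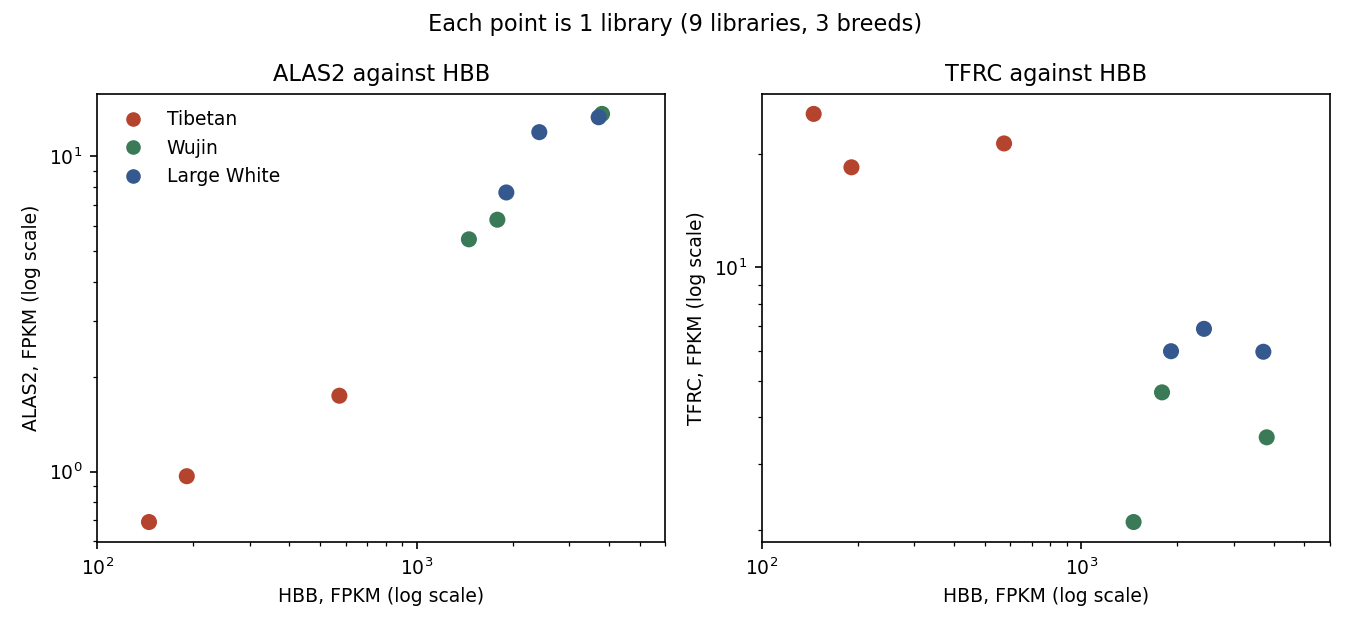
ALAS2 (left) and TFRC (right) against HBB, in FPKM on log axes, with 1 point for each of the 9 libraries coloured by breed. ALAS2 lies along a line with HBB over a 26.2-fold range of HBB, while the 3 Tibetan libraries combine the lowest HBB with the highest TFRC.

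Other globins were measured in part, since 3 of the 11 symbols of the globin list were matched. HBM, an alpha-type globin, stood at 1.61, 4.52 and 2.56 FPKM in Tibetan 1, 2 and 3, at 5.32, 15.6 and 8.88 in Wujin 1, Wujin a and Wujin b, and at 13.1, 11.995 and 20.5 in Large White 1, 2 and 3. HBM was called lower in Tibetan than in Large White (-2.09 ± 0.38, relative change -1.32, limma adjusted p = 0.000813) and than in Wujin libraries (-1.45 ± 0.38, adjusted p = 0.00785), though the second call ended after median-ratio scaling (-0.85). The ratio of HBB to HBM spanned 4.98-fold over the libraries, more than that of HBB to ALAS2.

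HBZ, the zeta chain of the earliest embryonic haemoglobins, was below the filter. It was listed at 0 in all 3 Tibetan libraries. In Wujin 1, Wujin a and Wujin b it stood at 1.30, 3.39 and 1.60 FPKM, and in Large White 1, 2 and 3 at 0.404, 0.515 and 0.437. The Wujin values all lay above the Large White ones, with means of 2.10 ± 1.13 and 0.452 ± 0.0574 FPKM (SD, n = 3), a difference that was not tested. Among tested entries, 44.9% showed no overlap of Wujin with Large White values.

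Entries without a symbol came closest to the HBB pattern, and 2 of them were singled out after their values were seen. Likeness was measured as the root mean square difference between profiles of log2(FPKM + 1) over the 9 libraries, each centred on its own mean. It was 0.31 for ENSSSCG00000014727 and 0.34 for ENSSSCG00000007978, against 1.65 for the spread of HBB about its own mean. ENSSSCG00000007978 stood at 195, 517 and 232 FPKM in Tibetan 1, 2 and 3, at 2829.5, 6581 and 2927 in Wujin 1, Wujin a and Wujin b, and at 5693, 3121 and 3967 in Large White 1, 2 and 3. The files give no name for either entry. HBB was 0.515 to 1.11 times ENSSSCG00000007978 in the single libraries.

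Among the entries with a symbol, the 5 nearest to HBB were SPATS2L, FAP, ASF1B, CHST14 and KIF22, at 0.51 to 0.56. The 5 nearest to ALAS2 were ZNF280C, LHFPL6, EDA, SLITRK4 and ST3GAL5, at 0.29 to 0.31. None of these is a globin or a haem synthesis gene. These distances describe the pattern only.

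Genes that mark red cell precursors were barely present in any library. Of the 7 measured erythroid transcription factors and receptors, 6 fell under the filter. GATA1, the master factor of the erythroid lineage, was listed at 0 in all Tibetan libraries and reached 0.536 FPKM in Large White 3. KLF1, which switches on HBB, reached at most 0.233 FPKM, also in Large White 3, and EPOR, the erythropoietin receptor, at most 1.07 FPKM in Wujin a. The exception was LMO2, which endothelial cells express too: it stood at 1.76 ± 0.105, 8.76 ± 0.832 and 9.28 ± 0.685 FPKM in Tibetan, Wujin and Large White libraries (Tibetan minus Large White -1.90 ± 0.11, limma adjusted p = 8.31e-07).

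Membrane genes of the red cell showed another order of libraries than HBB. SLC4A1, the band 3 anion exchanger, stood at 0.173, 0.566 and 1.65 FPKM in Large White 1, 2 and 3 and at no more than 0.130 FPKM in any other library. RHAG, the Rh-associated glycoprotein, reached 0.749 FPKM in Large White 3 and at most 0.176 FPKM elsewhere. Large White 3 was thus highest for both and for GATA1 and KLF1, while HBB and ALAS2 were highest in Wujin a. These levels are below the filter and were not tested. Of the 16 measured genes of the red cell list, 9 stayed below 1 FPKM in every library. The 5 that passed the filter are also expressed outside the erythroid lineage and did not share a direction. ANK1, ankyrin 1, had means of 51.9, 13.2 and 12.2 FPKM in Tibetan, Wujin and Large White muscle, and PRDX2, a peroxiredoxin, means of 291, 209.9 and 204 FPKM. SPTB, beta-spectrin, was highest in Wujin muscle, with means of 41.0, 60.2 and 34.3 FPKM, while KIT, a receptor of early precursors and mast cells, had means of 0.313, 3.09 and 24.4 FPKM and EPB41, protein 4.1, of 5.81, 3.59 and 5.58 FPKM. The sum over the whole list ranged from 329 to 497 FPKM for Tibetan, 278 to 310 for Wujin and 268 to 307 for Large White muscle. Within each breed this sum was highest in the library with the highest HBB (Tibetan 2, Wujin a and Large White 1). Without these 5 genes, a choice made after the values were seen, the sum was 1.33 to 1.74 FPKM for Tibetan, 1.81 to 2.17 for Wujin and 1.76 to 5.84 for Large White muscle. The Tibetan sums were the lowest, but Tibetan 3 at 1.74 FPKM came close to Large White 1 at 1.76 FPKM. Within Tibetan this smaller sum was highest in Tibetan 3, which had the lowest HBB. Most of the Tibetan 3 sum was CA2, carbonic anhydrase 2, which stood at 0.813, 0.482 and 1.38 FPKM in Tibetan 1, 2 and 3. CA2 reached at most 0.513 FPKM in the Wujin and 0.268 FPKM in the Large White libraries. The place of Tibetan 3 thus rests largely on CA2. Within Large White it was lowest in Large White 1, which had the highest HBB, while within Wujin both were highest in Wujin a.

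**Figure D3:**
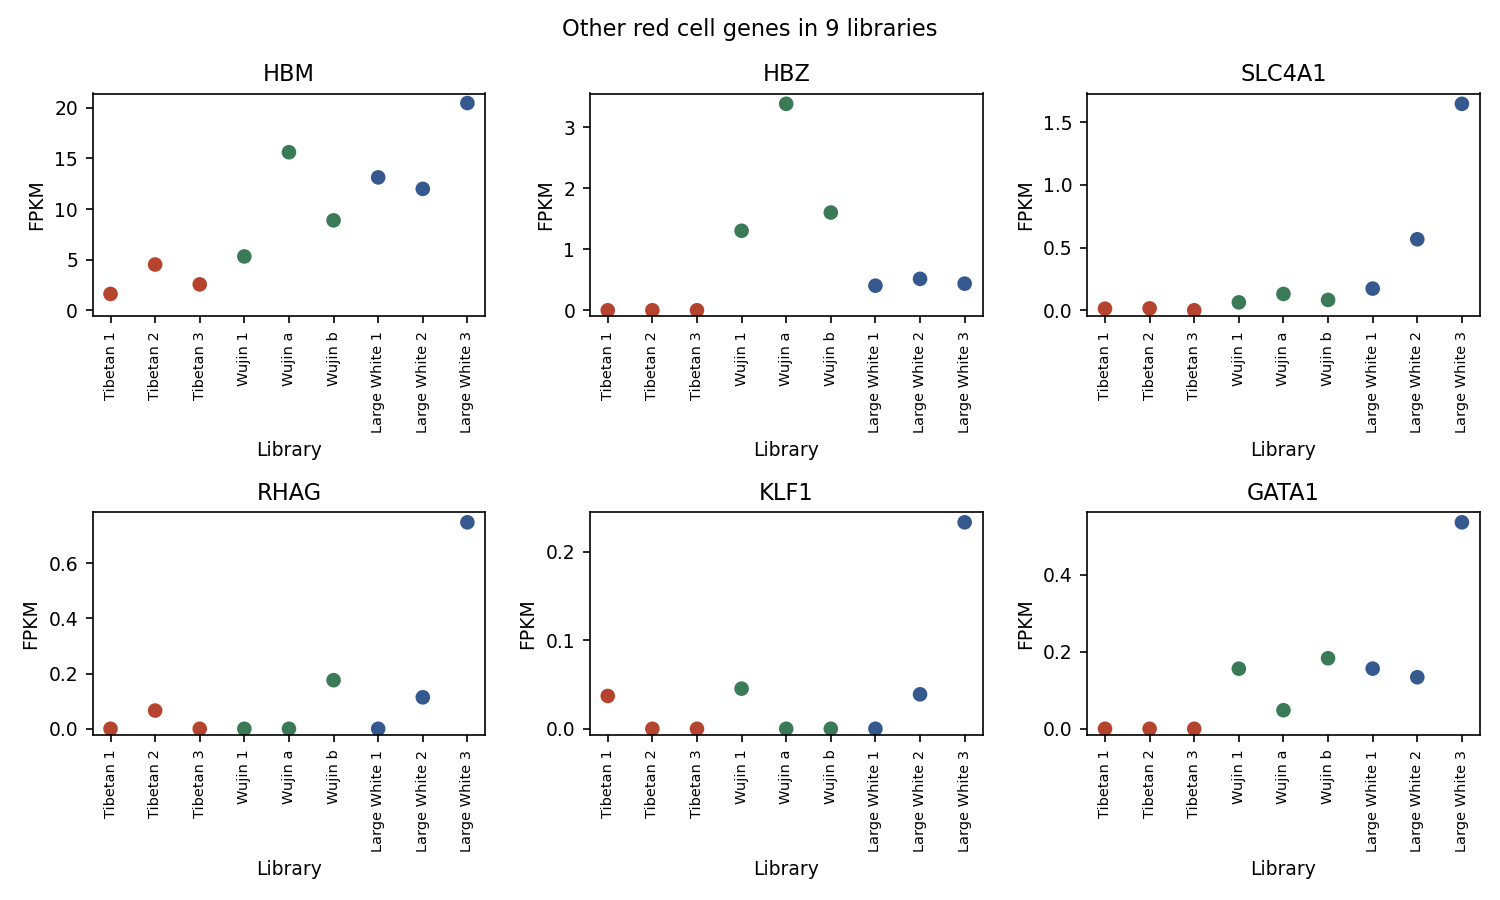
FPKM (linear axis) of HBM, HBZ, SLC4A1, RHAG, KLF1 and GATA1 in each of the 9 libraries. HBM and HBZ are low or 0 in the Tibetan libraries, and SLC4A1, RHAG, KLF1 and GATA1 are highest in Large White 3.

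Summed vessel and leukocyte genes differed less between breeds than HBB did, although single endothelial genes differed widely. KDR, a receptor for vascular endothelial growth factor, was called lower in Tibetan than in Large White libraries by 2.46 on the log2 scale. PECAM1, an adhesion molecule of endothelium, stood at 30.1 ± 4.02 FPKM in Tibetan and 51.8 ± 3.40 in Large White libraries (SD, n = 3), a relative change of 0.0034. The ratio of HBB to PECAM1 was 5.80, 22.5 and 4.55 in Tibetan 1, 2 and 3 and between 36.7 and 77.4 in the 6 other libraries. Of 8 tested endothelial genes, 3 were called lower in Tibetan than in Large White libraries and 0 higher, at an adjusted p under 0.05 in limma, and 5 were higher and 1 lower after median-ratio scaling. Over all entries 63.2% were lower and 13.0% higher, or 33.0% and 32.4% after that scaling. The summed endothelial level was 92.9 to 127 FPKM for Tibetan, 133 to 155 for Wujin and 145 to 151 for Large White muscle. Summed leukocyte genes (18 measured, 7 of them under 1 FPKM in every library) ran from 30.5 to 63.9 FPKM for Tibetan, 27.0 to 32.6 for Wujin and 31.9 to 47.0 for Large White muscle. Of 5 platelet genes, ITGB3 alone passed the filter, and the list summed to 1.501 to 2.001 FPKM in Tibetan and 5.27 to 10.6 FPKM in the other libraries. The part of blood content in the HBB and ALAS2 differences was not tested beyond these values.

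The first enzyme of haem synthesis was split by isoform between the breeds. ALAS1, the form of non-erythroid tissue, stood at 29.8, 26.4 and 31.4 FPKM in Tibetan 1, 2 and 3. In the 6 other libraries it lay between 9.28 and 11.3 FPKM. The Tibetan values were all above the rest, the opposite of ALAS2, and ALAS1 was called higher than in Large White (1.37 ± 0.11, relative change 2.14, limma adjusted p = 4.43e-06) and than in Wujin libraries (1.51 ± 0.11, adjusted p = 3.13e-06). In either direction, 80.6% of tested entries had no overlap of Tibetan with Large White values, and 67.7% had none with Wujin values. FPKM is scaled by length, so both isoforms can be set side by side: the ratio of ALAS1 to ALAS2 was 30.8, 15.2 and 45.5 for Tibetan 1, 2 and 3. The ratio fell between 0.683 and 1.70 for all other libraries, with 1.70, 0.683 and 1.63 in Wujin 1, Wujin a and Wujin b, and then 0.849, 1.35 and 0.875 for Large White 1, 2 and 3.

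The rest of the haem pathway moved less than either first enzyme. Of the 13 measured genes of haem synthesis and its mitochondrial transport, ALAS2 included, 3 were called higher in Tibetan than in Large White libraries, 6 lower and 4 were not called, with a median relative change of 0.44. After median-ratio scaling 8 were higher and 4 not called, and ALAS2 was the only 1 called lower. Over all entries 13.0% were higher and 63.2% lower, or 32.4% and 33.0% after that scaling. PPOX, protoporphyrinogen oxidase, stood at 6.17 FPKM in Tibetan and 13.4 in Large White libraries (-0.99 ± 0.14, relative change -0.22). UROD, uroporphyrinogen decarboxylase, was called lower before scaling (-0.55) but higher after median-ratio scaling (0.39). FECH, ferrochelatase, which inserts iron into the ring, stood at 13.9 ± 2.91 in Tibetan, 7.73 ± 3.15 in Wujin and 14.7 ± 0.796 FPKM in Large White libraries and was not called in Tibetan minus Large White (-0.092 ± 0.27, adjusted p = 0.769). UROS, uroporphyrinogen synthase, was the only member of the list called in Wujin minus Large White (-0.82 ± 0.16, adjusted p = 0.0300), and that call ended after median-ratio scaling (-0.59). ABCB6, a porphyrin transporter, and CLPX, a mitochondrial unfoldase that activates ALAS, were called higher in Tibetan libraries by 0.67 and 0.32.

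**Figure D4:**
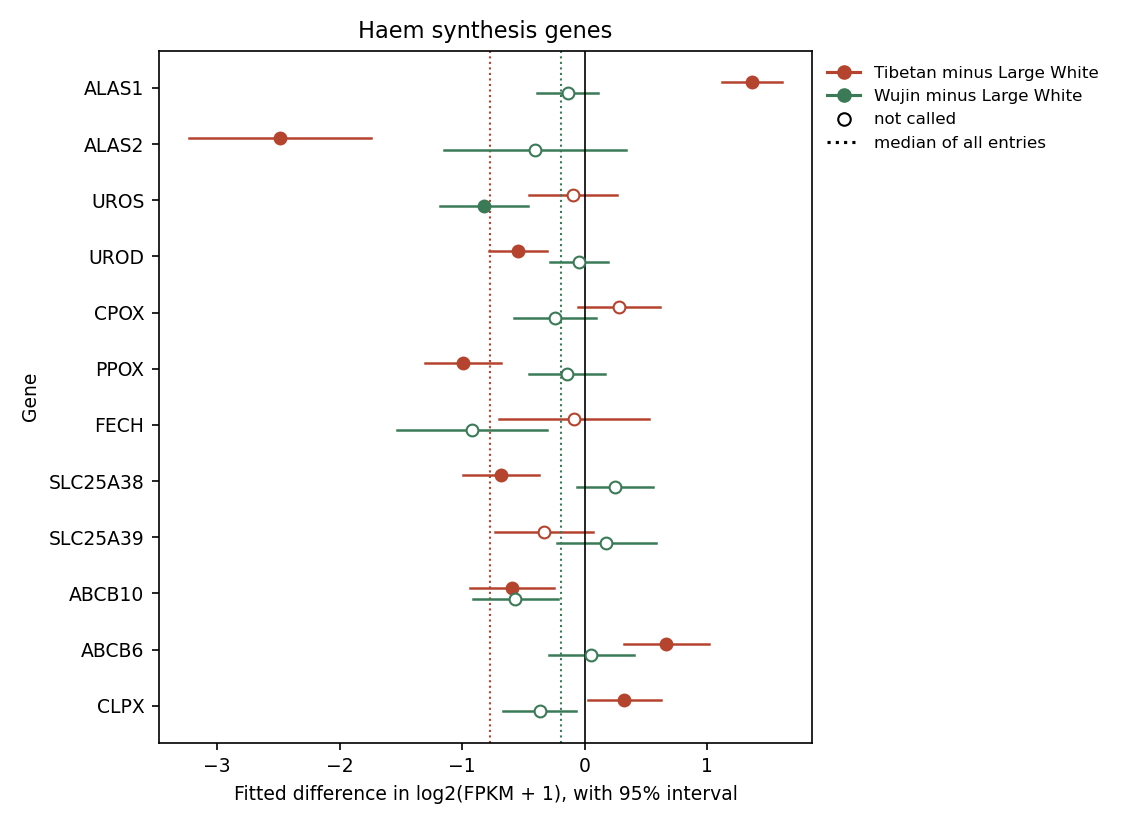
Fitted difference in log2(FPKM + 1) with its 95% interval for 12 of the 13 haem synthesis genes, Tibetan minus Large White and Wujin minus Large White, which share the Large White libraries. Filled points were called at an adjusted p under 0.05, and dotted lines mark the median of all entries. ALAS1 at 1.37 and ALAS2 at -2.49 are the extremes of the Tibetan comparison.

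Haem export and breakdown genes were called in shares near those of all entries. Of 9 measured genes, 1 was called higher in Tibetan than in Large White libraries, 6 lower and 2 not called, beside 13.0% higher and 63.2% lower over all entries. After median-ratio scaling 3 were higher, 3 lower and 3 not called, beside 32.4% and 33.0% over all entries. BLVRB, a biliverdin reductase that is abundant in red cells, was higher in Tibetan muscle, at 15.1 ± 3.82 against 5.61 ± 1.21 FPKM (1.28 ± 0.22, limma adjusted p = 0.000500). FLVCR2, a transporter of the family of haem exporters, stood at 0.183 ± 0.0851 against 3.22 ± 0.166 FPKM (relative change -1.06).

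TFRC ran against HBB and ALAS2 in the Tibetan libraries, while between Wujin and Large White all 3 genes had the lower mean in Wujin. TFRC stood at 18.5, 21.4 and 25.6 FPKM in Tibetan 1, 2 and 3, at 2.10, 3.53 and 4.65 in Wujin 1, Wujin a and Wujin b, and at 5.97, 5.99 and 6.87 in Large White 1, 2 and 3. No 2 breeds overlapped, and the order was Tibetan above Large White above Wujin. A lack of overlap was found for 80.6% of tested entries between Tibetan and Large White and for 67.7% between Tibetan and Wujin. The breed means were 21.8 ± 3.59, 3.43 ± 1.28 and 6.27 ± 0.513 FPKM (SD, n = 3). Tibetan minus Large White was 1.64 ± 0.21 for TFRC (relative change 2.41, limma adjusted p = 9.59e-05), and Tibetan minus Wujin was 2.39 ± 0.21 (relative change 2.94, adjusted p = 1.13e-05). The first value rose to 2.53 after median-ratio scaling.

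Wujin minus Large White was -0.76 ± 0.21 for TFRC, with a 95% interval from -1.24 to -0.27, and it was not called (adjusted p = 0.0624). The libraries of these breeds did not overlap for TFRC, as was so for 44.9% of all tested entries. Without Wujin b, the Wujin library nearest to Large White, the difference was -0.95 and passed the test (adjusted p = 0.0360). Over the other alternatives the adjusted p ran up to 0.193 with all but 1 library and up to 0.607 without both Large White 2 and 3. Wujin and Large White, the lower neighbours in the order of TFRC levels, were thus not separated by the adjusted test.

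The 5 named entries with profiles nearest to TFRC were NDUFS1, SLC27A1, PCYOX1, GYG1 and MDH1, at root mean square differences of 0.20 to 0.24 against 1.03 for the spread of TFRC itself. NDUFS1, an iron-sulphur subunit of respiratory complex I, stood at 47.9, 11.1 and 16.4 FPKM in Tibetan, Wujin and Large White libraries. SLC27A1, a fatty acid transporter, stood at 11.5, 2.08 and 2.96 FPKM, and MDH1, cytosolic malate dehydrogenase, at 105, 24.9 and 45.8 FPKM. GYG1, glycogenin, which primes glycogen, stood at 107, 16.2 and 24.0 FPKM. Each was highest in Tibetan and lowest in Wujin libraries, as TFRC was, which follows from their selection by likeness to its profile.

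Of the other settings in which TFRC is known to be high, muscle genes were mostly higher in Tibetan libraries and cell division genes were lower. Of 10 tested skeletal muscle genes, 7 were called higher in Tibetan than in Large White libraries, 2 lower and 1 not called, with a median relative change of 1.63, and 7 were higher and 1 lower after median-ratio scaling. Over all entries 13.0% were higher and 63.2% lower, or 32.4% and 33.0% after that scaling. TNNC2, fast troponin C, had means of 20764, 10298 and 5549 FPKM in Tibetan, Wujin and Large White muscle. DES had means of 2842, 1537 and 1101 FPKM, and MYH8, the perinatal myosin heavy chain, of 3330.4, 108 and 54.0 FPKM. MYH3, the embryonic myosin heavy chain, went the other way (Tibetan minus Large White -3.82 after median-ratio scaling, limma adjusted p = 3.42e-07). The part of muscle content in the TFRC difference was not tested. All 16 measured cell cycle genes were called lower in Tibetan than in Large White libraries, also after median-ratio scaling, beside 63.2% and 33.0% of all entries. Their median relative change before that scaling was -2.23. Their summed level was 10.4 to 11.3 FPKM for Tibetan, 140 to 174 for Wujin and 218 to 237 for Large White muscle. TOP2A, a topoisomerase of dividing cells, stood at 0.214 FPKM in Tibetan and 29.4 in Large White libraries. The highest TFRC was therefore measured in the libraries with the lowest cell cycle, HBB and ALAS2 message.

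Few other iron uptake genes passed the filter. Of the 13 listed symbols 9 were measured, TFRC included. Of these 9, 6 fell under the filter, and LCN2 and TF passed beside TFRC. STEAP3, a ferrireductase that works in the endosome beside the transferrin receptor, was among those under the filter. It stood at 1.88, 2.05 and 2.14 FPKM in Tibetan 1, 2 and 3 and at most 0.237 FPKM in the 6 other libraries. The Tibetan values of STEAP3 stood clear of the rest, those of Wujin and Large White overlapped, and it was not tested. Among tested entries, 80.6% had Tibetan values clear of Large White and 67.7% had them clear of Wujin. TFR2, the second transferrin receptor, stayed at or below 0.291 FPKM in every library. LCN2, lipocalin 2, which binds iron-loaded siderophores, stood at 3.34 FPKM in Tibetan and 0.400 FPKM in Large White libraries (1.62 ± 0.15, relative change 2.39, limma adjusted p = 1.02e-05). TF, the plasma carrier of iron, stood at 7.41, 2.37 and 0.620 FPKM in Tibetan 1, 2 and 3, at most 0.421 in Wujin libraries, and at 0.781, 11.1 and 15.0 in Large White 1, 2 and 3. The Tibetan and Large White values of TF overlapped, and no comparison was called.

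Iron storage and export genes did not follow TFRC before rescaling, and part of them did after it. Of 5 tested, 0 were called higher in Tibetan than in Large White libraries, 3 lower and 2 not called. After median-ratio scaling 3 were higher, PCBP2 among them (0.51), and 2 lower. Over all entries 13.0% were higher and 63.2% lower, or 32.4% and 33.0% after that scaling. FTL, the ferritin light chain, stood at 408 ± 83.7 FPKM in Tibetan, 433 ± 52.4 in Wujin and 422 ± 44.1 in Large White libraries, and no pair of breeds was called (Tibetan minus Large White -0.063 ± 0.17, limma adjusted p = 0.749). After median-ratio scaling FTL was called higher in Tibetan than in Large White libraries (0.91). The ratio of TFRC to FTL, which no scaling changes, was 0.0435 to 0.0790 for Tibetan, 0.00429 to 0.0110 for Wujin and 0.0127 to 0.0180 for Large White muscle, without overlap among the 3 breeds. SLC40A1, ferroportin, the iron exporter, was lower in Tibetan muscle, at 0.916 ± 0.3297 FPKM against 2.44 ± 0.601 in Wujin and 4.71 ± 0.618 in Large White libraries (Tibetan minus Large White -1.58 ± 0.18, relative change -0.81, adjusted p = 4.19e-05). It was also called lower in Wujin than in Large White libraries (-0.74 ± 0.18, adjusted p = 0.0471), a call that ended after median-ratio scaling (-0.54). BMP6, the signal that raises hepcidin when iron is plentiful, stood at 3.05 ± 0.480 FPKM in Tibetan, 24.8 ± 3.93 in Wujin and 22.3 ± 1.59 in Large White libraries (Tibetan minus Large White -2.53 ± 0.15, relative change -1.76). NCOA4, which delivers ferritin for breakdown, stood at 18.9 FPKM in Tibetan and 20.5 in Large White libraries and was not called, though it was higher after median-ratio scaling (0.80).

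Calls among the iron sensors depended on the scaling. Of the 3 tested genes of this list, 0 were called in limma for Tibetan minus Large White, and 1 of them (CUL1, a ubiquitin ligase scaffold) had an unadjusted p under 0.05. After median-ratio scaling all 3 were called higher. Over all entries 76.2% were called before that scaling, and 32.4% were called higher after it. ACO1, iron regulatory protein 1, stood at 9.59, 8.30 and 9.78 FPKM in Tibetan, Wujin and Large White libraries. IREB2, iron regulatory protein 2, was under the filter and not tested, at 0.424, 0.839 and 1.44 FPKM. Its Tibetan and Large White values did not overlap, as was so for 80.6% of tested entries. FBXL5, which marks iron regulatory protein 2 for destruction when iron is present, stood at 8.69, 8.48 and 11.6 FPKM.

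Genes that build iron-sulphur clusters in mitochondria included several that were higher in Tibetan than in Large White libraries, as TFRC was. Of 9 tested, 4 were called higher in Tibetan than in Large White libraries, 2 lower and 3 not called, with a median relative change of 1.06, and 6 were higher and 1 lower after median-ratio scaling. Over all entries 13.0% were higher and 63.2% lower, or 32.4% and 33.0% after that scaling. NFS1, the cysteine desulphurase that supplies sulphur, had a mean of 14.5 ± 2.77 FPKM in Tibetan muscle and 5.29 ± 0.966 in Large White muscle (1.29 ± 0.19, relative change 2.06, limma adjusted p = 0.000244). HSPA9, the mitochondrial chaperone that helps to transfer clusters, stood at 80.6 ± 12.6 against 35.5 ± 1.84 FPKM (relative change 1.92). ISCU, the scaffold, stood at 94.4 ± 5.05 against 62.7 ± 4.13 FPKM (relative change 1.36). FDXR, ferredoxin reductase, went the other way, at 1.13 against 4.30 FPKM (relative change -0.54). In the cytosolic assembly list 1 of 7 was higher and 5 lower, near the 13.0% and 63.2% of all entries, and after median-ratio scaling 2 were higher and 0 lower at an adjusted p under 0.05 in limma. The gene called higher under both was CIAO3, at 17.9 FPKM in Tibetan, 12.9 in Wujin and 8.40 in Large White libraries.

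**Figure D5:**
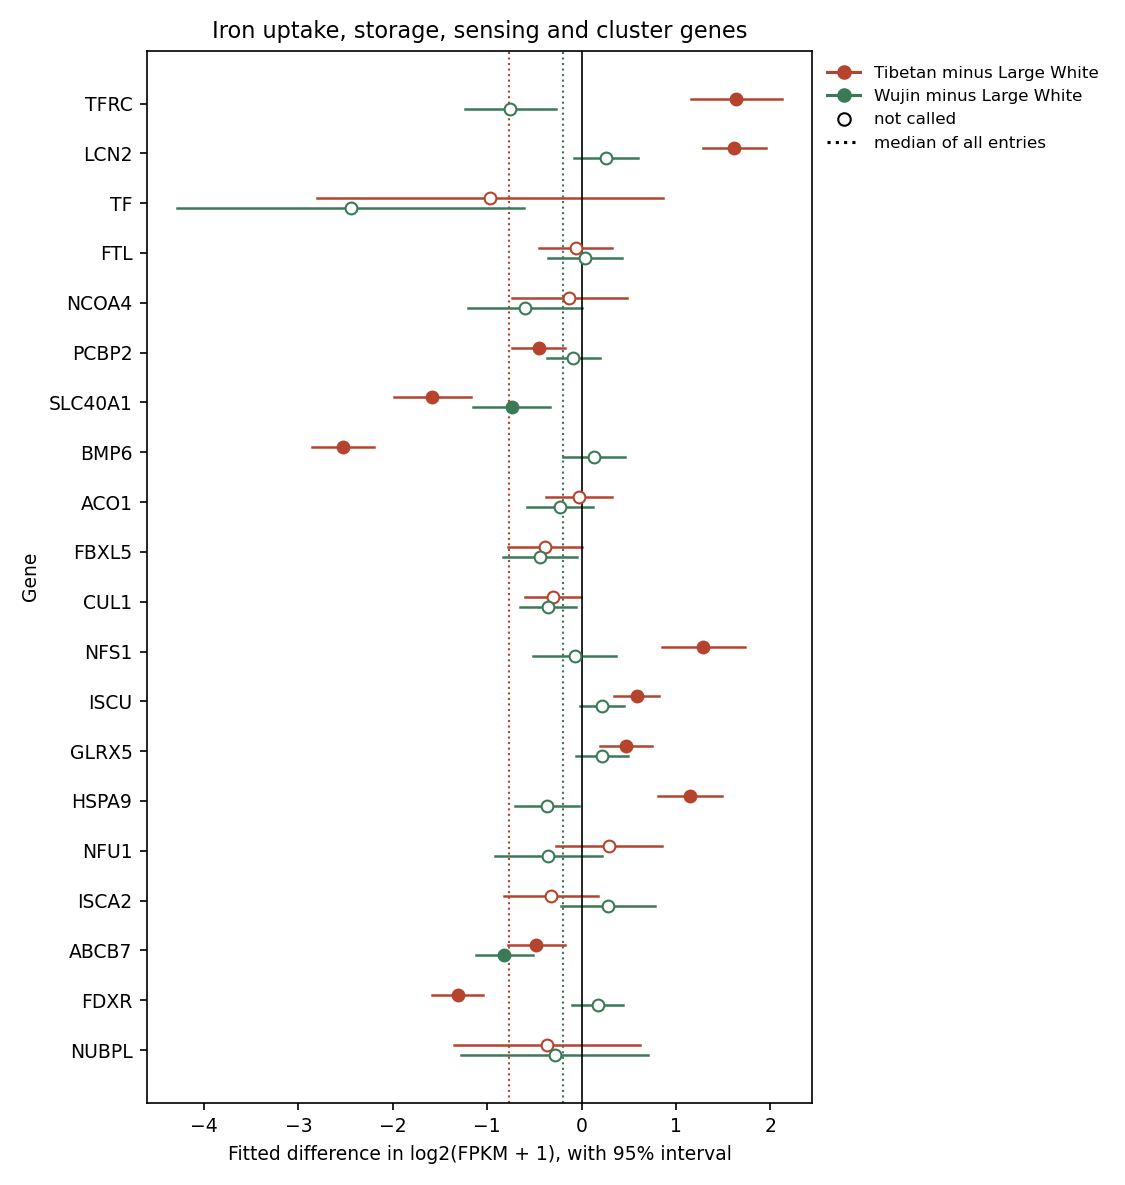
Fitted difference in log2(FPKM + 1) with its 95% interval for iron genes that passed the filter. They cover uptake, storage, export, sensing and mitochondrial cluster assembly, and cytosolic cluster assembly genes are not shown. Tibetan minus Large White and Wujin minus Large White share the Large White libraries. Filled points were called, and dotted lines mark the median of all entries. TFRC at 1.64 and LCN2 at 1.62 are highest in the Tibetan comparison, and BMP6 at -2.53 is lowest.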

How the data were processed

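The authors deposited 1 table of FPKM values for the whole series, per the file headers, with 19643 entries and 9 columns. The submitters' processing notes name TopHat. For the quantifier, genome build and gene annotation the entry is "not given in the sources used here". Libraries were built from total RNA with a TruSeq kit, per the labels' protocols. Columns were assigned by header, and 2 columns that share a Wujin header were taken as replicates of the breed. Symbols were matched by gene ID for 11179 entries; 152 of 246 list symbols could be matched. Where a symbol had more than 1 entry, that with the greatest mean was used.

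Testing was limited to entries whose mean reached 1 FPKM and was done on log2(FPKM + 1), which understates changes of low genes. limma 3.58.1 in R 4.3.3 fitted breed means over all 9 libraries (eBayes with trend), with Benjamini-Hochberg adjustment over 13106 entries, called under 0.05. The fit was tested on simulated data. Named were the members, the measured globin, haem and iron genes, up to 4 genes of highest mean in each other list and the 5 nearest profiles per member; other genes, such as GATA1, SLC4A1 and KIT, were picked with their values in view. The members and lists were chosen with earlier results of these data known. Alternatives covered pseudocounts of 0.1 and 5, filters, scalings, trend, the libraries used and each library left out. No sequence is printed, as none was used here.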

Additional observations from a re-analysis of the deposited data

How the results depend on the processing

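Of 171 alternative values for the 3 genes in the 3 comparisons, 169 kept their direction and their side of the threshold. The exceptions both concern Wujin minus Large White: without Wujin 1 the HBB difference was 0.017 in place of -0.26, and without Wujin b the TFRC difference was -0.95 and called. With 1 library left out in turn, that comparison ranged from -0.68 to 0.017 for HBB, from -0.77 (without Wujin a) to -0.18 (without Wujin 1) around -0.41 for ALAS2, not called in any, and from -0.95 to -0.52 for TFRC. The cause was not tested. Entries called in Wujin minus Large White numbered 855, against 270 with a pseudocount of 0.1, 1831 with 5, 402 with a mean of at least 5 FPKM, 410 after median-ratio scaling, 453 with equal totals without the 50 highest entries, 280 with only the 6 libraries, 66 (without Large White 3) to 1633 (without Wujin b) with 1 library left out, where each library other than Tibetan 2 moved the number by over 1.5 times, and 31 without Large White 2 and 3, an alternative chosen after seeing the data in which Large White 1 is assumed to vary like the other groups. With a mean of at least 5 FPKM, fewer entries (7187) were tested, and 5533 were called in Tibetan minus Large White against 9983, 5181 in Tibetan minus Wujin against 8871, and 5717 in the F test among breeds against 10173. Same-numbered Tibetan and Large White libraries did not deviate together (correlations of 0.013, -0.023 and -0.076), so these values gave no sign of a pairing. Whether the numbers mark a shared batch is not stated and cannot be settled with 3 libraries of each breed. With the replicate block, 10064 entries were called in Tibetan minus Large White, and the adjusted p was 0.00315 for HBB, 0.00103 for ALAS2 and 0.000292 for TFRC. A block with the 7 numbered libraries leaves Wujin 1 alone for its breed. No blocked result is therefore given for the Wujin comparisons or the F test. Depth in fragments is unknown, so levels under 1 FPKM, such as ALAS2 in Tibetan 1 and 3, carry no counting error here.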

Other observations

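Some plasma protein genes of the liver set the libraries in another order than HBB. APOA1, an apolipoprotein, was lower in Tibetan than in Large White and Wujin libraries (-1.52 and -1.80 after median-ratio scaling, both called), as HBB was. It was not called in Wujin minus Large White. Of the 8 tested genes of this list, 2 were called lower in Tibetan minus Large White after that scaling, 0 higher and 6 not called. Over all entries 33.0% were lower and 32.4% higher. AHSG, fetuin A, stood at 1.10, 30.0 and 43.0 FPKM in Large White 1, 2 and 3, and AFP, alpha-fetoprotein, at 0.205, 6.23 and 8.75 FPKM, while HBB was lower in Large White 2 and 3 than in Large White 1. The Wujin libraries held no more than 0.261 FPKM of AHSG and 0.109 FPKM of AFP, and limma called neither gene in Wujin minus Large White (adjusted p = 0.0724 for both). Tibetan 1 had the highest ALB, serum albumin, at 25.7 FPKM, and the highest APOC3, an apolipoprotein, at 38.5 FPKM, with HBB at 191 FPKM. Without Large White 2 and 3, Tibetan minus Large White was -3.88 for HBB, -2.78 for ALAS2 and 1.70 for TFRC, and limma called each (adjusted p of 0.00794, 0.00396 and 0.00707).

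KIT, the receptor of stem cell factor on early erythroid precursors and on mast cells and melanocytes, stood at 25.0, 24.0 and 24.2 FPKM in Large White 1, 2 and 3, at 1.95, 3.71 and 3.61 in Wujin 1, a and b, and at 0.150, 0.425 and 0.364 in Tibetan 1, 2 and 3. KIT was called lower in Wujin than in Large White libraries (-2.67 ± 0.19, limma adjusted p = 0.000330), where HBB and ALAS2 were not called; the difference between these genes was not tested.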
